A study of Mus musculus with 8 samples.

Results

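The 4 libraries described here hold the baseline of confluent 3T3-L1 preadipocytes: they are the control siRNA libraries among the 8 RNA-seq libraries of a study of Fto knockdown, chosen by their labels alone. 3T3-L1 is an established clonal line derived from mouse embryo fibroblasts that can be induced to become fat cells. The cells came from ATCC and were grown in DMEM with 25 mM glucose and 10% newborn calf serum. Before confluence the control cells were given a mix of 3 non-targeting duplexes of the Stealth type at 40 nM siRNA, with Lipofectamine 2000 as carrier, over 24 hours, and the labels place the cells 2 days past confluence. The 4 libraries not described here went through the same transfection with 3 siRNAs against Fto, so every library of the study came from transfected cells. The labels do not say whether the 4 controls were separate cultures, so the spread between them may be technical. Of 23699 deposited entries, the 23389 with status OK in all 4 controls were used. Values are FPKM, fragment numbers scaled by transcript length and by the depth of the library, a level per length for comparison between genes. The comparison is unsafe for very short entries, where few fragments can carry a high value. Fto itself, which encodes an RNA demethylase, was at 54.6, 55.4, 56.2 and 55.2 FPKM in controls 1 to 4.

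A preadipocyte is a committed fibroblast-like cell that can turn into a fat cell. It grows until contact stops it, lays down a collagen-rich matrix, and waits for hormonal signals that switch on the nuclear receptor PPARγ and the C/EBP factors. Dlk1, also known as Pref-1, is a membrane and shed protein that holds the cell in this state, and it is lost when differentiation begins. Mature fat cells are known instead by adiponectin, perilipin and the lipid droplet proteins.

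The deposited intervals imply 20.5 to 24.4 M fragments per library, and 11303 to 11329 entries reached 1 FPKM in each. One library stood apart. Control 3 differed from each other control by a median of 1.28 to 1.53 standard errors over expressed entries, against 0.900 to 0.986 for pairs among controls 1, 2 and 4. Its summed FPKM was 479900, against 450823, 458415 and 455600 in controls 1, 2 and 4, and it was the highest library for 40.5% of the entries with a mean of at least 1 FPKM as deposited and for 33.2% after scaling by median ratio. With every library scaled to the same sum this turned round, control 3 being the highest for 21.1% and the lowest for 46.7% of those entries. Its difference went with transcript length. Length was that of the longest annotated transcript, a coding one where there was one, for 8279 genes with a mean of at least 5 FPKM. Across them the difference of control 3 from the mean of the other 3 controls had a Spearman correlation of -0.64 with length. This is a description across genes that share the same libraries. Among the 1656 genes with the shortest transcripts (up to 1760 bases) the median difference was 0.14 on the log2(FPKM + 0.5) scale, and among the 1656 with the longest (from 5079 bases) it was -0.10. Controls 1, 2 and 4 leaned the other way, with correlations of 0.51, 0.24 and 0.24. Part of that is built in, since control 3 is in the mean that each of them is set against. What produced this lean was not tested, and it runs through many of the values below: short transcripts tend to be highest in control 3 and long ones lowest.

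**Figure D1:**
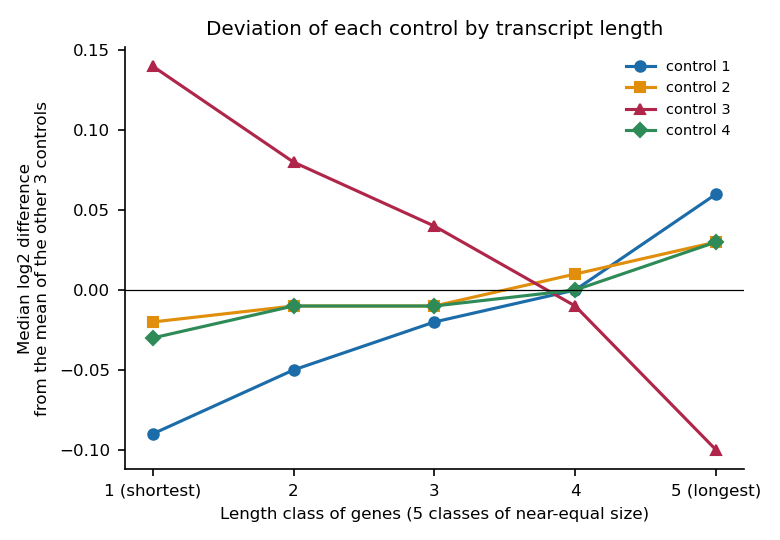
Median difference of each control from the mean of the other 3, on the log2(FPKM + 0.5) scale (vertical axis), for 5 length classes of 8279 genes ordered by transcript length (horizontal axis), with one line per library. Control 3 goes from 0.14 in the shortest class to -0.10 in the longest, and control 1 goes from -0.09 to 0.06.

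Expression was spread over many genes. A mean of at least 1 FPKM was reached by 11341 entries (48.5%), with a median of 15.2 FPKM among them, and 6506 entries (27.8%) were listed at 0 in all 4 controls. The counts of list members at 1 FPKM or at 0 given below are to be read beside these shares. The 760 entries at 100 FPKM or more held 52.4% of the summed FPKM, and the 36 at 1000 or more held 15.1%. The 20 highest entries held 11% in control 1, 11% in control 2, 11.2% in control 3 and 10.8% in control 4. No single transcript dominated the libraries, and the highest entry, Fth1, had a mean of 6370 FPKM.

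Fth1, the heavy chain of the iron store ferritin (mm9 chr19:10057193-10059582), was at 6086, 6281, 7054 and 6060 FPKM in controls 1 to 4. Control 3 was the highest and the other 3 lay close together. Its partner Ftl1, the ferritin light chain, was at 1242, 1259, 1456 and 1243 FPKM, with the same library on top. The transferrin receptor gene Tfrc, which brings iron into the cell, was at 15.9 ± 1.30 FPKM (SD, n = 4), and the iron exporter gene Slc40a1 at 6.23 ± 0.346 FPKM (SD, n = 4). The storage genes were therefore the abundant members of the 12 matched iron genes, a list drawn up after the values were seen.

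Protein synthesis genes formed the largest group. Eef1a1, which delivers aminoacyl-tRNA to the ribosome (mm9 chr9:78326261-78329531), was at 4553, 4575, 4773 and 4597 FPKM. Genes of the cytosolic ribosomal proteins held 8.55% ± 0.324 (SD, n = 4) of the summed FPKM, and 80 of their 83 entries reached 1 FPKM. Rplp1 was at 2136 ± 206, Rpl32 at 1887 ± 91.8, Rpl41 at 1689 ± 60.9 and Rps21 at 1549 ± 113 FPKM (SD, n = 4). Of the 80 expressed entries 72 were highest in control 3 as deposited and after median-ratio scaling, and 60 with every library scaled to the same sum. The share per library was 8.28%, 8.55%, 9.01% and 8.37%. Nuclear genes of the respiratory chain held 2.43% ± 0.0913 (SD, n = 4), and 65 of 76 expressed members were highest in control 3 as deposited, 64 after median-ratio scaling and 52 with equal sums. Over all expressed entries control 3 was the highest for 40.5%, 33.2% and 21.1% in the same order. The counts for both lists are to be read beside these shares. Of the 1656 genes in the shortest length class (up to 1760 bases), 90.2% were above the mean of the other controls in control 3 as deposited. That is a looser measure than being the highest of the 4 libraries, so it cannot be set directly against the counts.

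The other abundant transcripts belonged to the matrix, the cytoskeleton and calcium-binding proteins. S100a4, a small calcium-binding protein also called fibroblast-specific protein, was at 3140, 3426, 3882 and 3295 FPKM. Vim, the intermediate filament of mesenchymal cells, was at 2364, 2566, 2692 and 2461 FPKM. Both were lowest in control 1 and highest in control 3. Lgals1, which encodes the galactose-binding galectin-1, was at 1974 ± 167 FPKM, S100a6 at 1848 ± 76.6 FPKM and Actb at 1157 ± 58.4 FPKM (SD, n = 4). The list of S100, annexin and galectin genes as a whole held 2.56% ± 0.0792 of the summed FPKM (SD, n = 4).

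**Figure D2:**
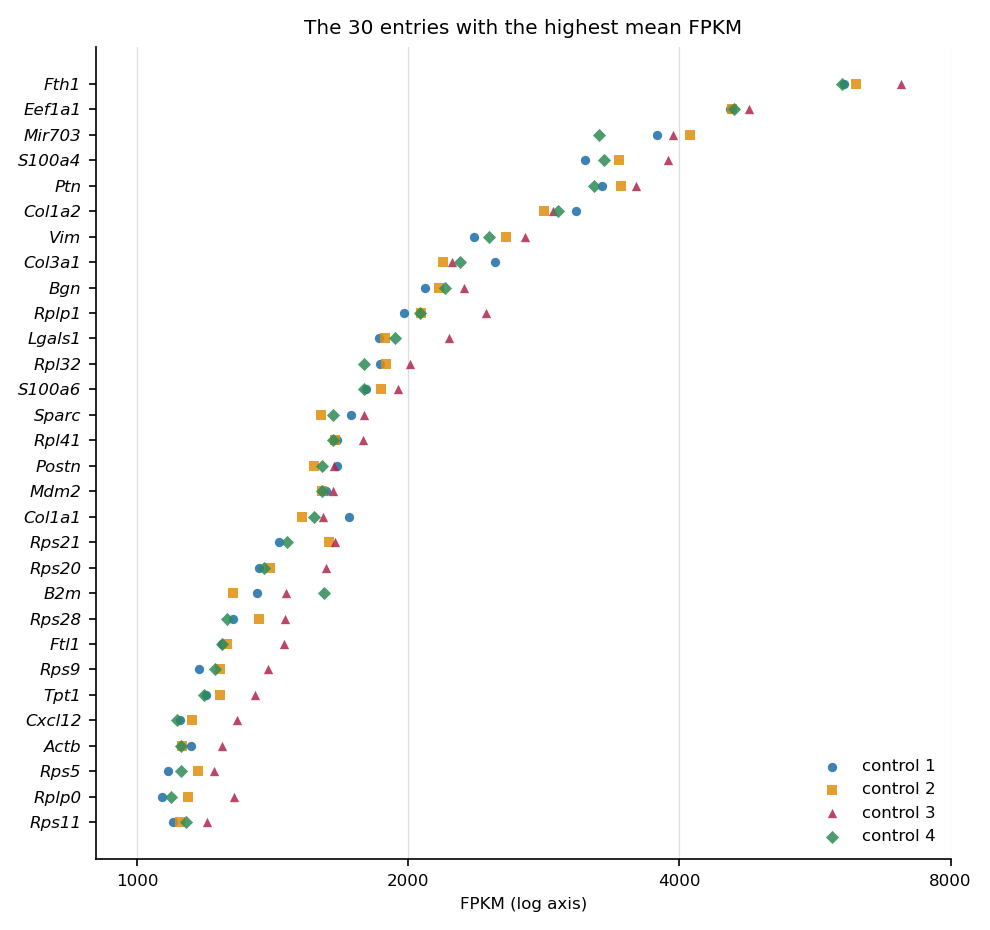
FPKM (horizontal log axis) of the 30 entries with the highest mean in each of the 4 controls, one mark per library. Fth1 leads at 6060 to 7054, and control 3 is the rightmost mark for the 10 ribosomal protein genes, while Col1a2, Col3a1 and Col1a1 are highest in control 1.

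The start regions of these highest genes were searched for the TATA box, a core promoter element that sits shortly before the start site of a minority of genes and has the letters TATAAA in its common form. In the RefSeq promoter table for build GRCm38.p6, 21 of the 30 highest entries had a sequence. The 30 bases from -40 to -11 relative to the annotated start held these letters on the gene's strand in 3 of those 21 genes, shown here 5′ to 3′ with the letters in capitals.
Vim, chr2:13574271-13574300, plus strand: aacagtgtTATAAAagcagcgcccttggcg
Postn, chr3:54361067-54361096, plus strand: acagcccagagctaTATAAActcagctctc
S100a4, chr3:90603730-90603759, plus strand: ctggcagggTATAAAtaggtcagattgttg
Over the 27025 genes of the table, 2.51% held the same letters in this window on the gene's strand. Counted by sequence it was 3 of 24 for the highest entries against 2.08% of 32851, and 0.737% of those held them on the opposite strand. None of the 61 ribosomal protein genes with a sequence held them on either strand, although 10 of the 30 highest entries were of that kind. A match of letters is a description and not a mapped binding site, and genes without it in this window may use a variant.

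One high value has little behind it. The entry for the microRNA gene Mir703 had a mean of 3769 FPKM, with 3773, 4111, 3935 and 3257 FPKM in controls 1 to 4. Its locus is 109 bases long, the lowest library rests on about 61 fragments, and its counting error of 12.2% is larger than its CV (SD as a percent of the mean) of 9.77%. At so short a locus few fragments carried a high FPKM, and plain division by its 109 bases does not give a value of this size. In all, 48 expressed entries had loci under 300 bases and together held 1.27% of the summed FPKM, and 570 of 577 microRNA entries were listed at 0.

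Mdm2 was also among the 30 highest entries. It encodes the ubiquitin ligase that marks p53 for destruction (mm9 chr10:117125961-117147772). It was at 1619, 1603, 1649 and 1605 FPKM. With a CV of 1.29% it was also the most even of the 30 highest entries. High values were not shared by all of its neighbours. Slc35e3, 23.0 kb away, was at 516 ± 5.4 FPKM and Rap1b, 104 kb away, at 174 ± 3.70 FPKM (SD, n = 4). Nup107, which lies between those genes at 39.9 kb, was at 37.0 FPKM, Cpsf6, 312 kb away, at 22.4 FPKM, and Cpm, 1.55 kb away on the other side, at 0.415 FPKM. Copy number of the region was not measured. Trp53, which encodes p53, was at 60.9 ± 3.20 FPKM, and its target Cdkn1a, the cell cycle inhibitor p21, at 107 ± 5.42 FPKM (SD, n = 4). Mdm4, which encodes a relative of Mdm2, was at 28.7 ± 2.66 FPKM. The neighbours were picked after the values of Mdm2 were seen.

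The cells carried a high load of matrix transcripts. The 4 matrix lists together (collagens, glycoproteins, proteoglycans, and enzymes with their inhibitors) held 6.27% ± 0.194 of the summed FPKM (SD, n = 4), and 131 of their 184 entries reached 1 FPKM. Fibrillar collagen led. Col1a2 was at 3073, 2827, 2897 and 2929 FPKM, Col3a1 at 2495, 2183, 2235 and 2283 FPKM, and Col1a1, the partner chain of Col1a2 in type I collagen, at 1717, 1523, 1609 and 1570 FPKM. All 3 genes were highest in control 1 and lowest in control 2. Below them came the microfibrillar chains Col6a1 (707 ± 6.23 FPKM), Col6a2 (508 ± 16.6) and Col6a3 (400 ± 34.8) and the basement membrane chains Col4a1 (394 ± 20) and Col4a2 (254 ± 12), all as mean ± SD of n = 4. The cartilage collagen Col2a1 was at 0.0459 FPKM. Collagen genes held 2.32%, 2.10%, 2.03% and 2.19% of the summed FPKM in controls 1 to 4, and 15 of the 23 expressed entries were lowest in control 3, against 27.4% of all expressed entries. With every library scaled to the same sum it was 21 of 23, against 46.7%.

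Among the glycoproteins, Sparc, a collagen-binding protein, was at 1726, 1600, 1787 and 1649 FPKM and Postn, periostin, at 1666, 1572, 1655 and 1604 FPKM. Both were lowest in control 2 and next lowest in control 4. Fbln2 was at 579 ± 13.5, Thbs1 at 409 ± 34.3, Fn1, fibronectin, at 305 ± 30.2 and Nid1, which joins laminin to collagen IV, at 300 ± 12.2 FPKM (SD, n = 4). Of 65 glycoprotein genes 49 reached 1 FPKM, and Thbs4 and Lama1 were listed at 0. Among proteoglycans Bgn, biglycan, led at 2085, 2161, 2303 and 2199 FPKM, followed by Dcn, decorin, at 797 ± 38.4 and Aspn at 555 ± 28.8 FPKM (SD, n = 4). The Aspn locus overlaps that of Cenpp, so its reads cannot be told apart from that gene without strand.

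The machinery that processes the matrix was represented by 39 of 47 genes at 1 FPKM or more. Pcolce, which enhances removal of the procollagen C-propeptide, was at 1068 ± 65.8 FPKM. Serpinh1, the collagen chaperone HSP47, was at 722 ± 37.8, and Lox, the enzyme that cross-links collagen and elastin, at 701 ± 15 FPKM. The gelatinase gene Mmp2 was at 745 ± 12.6, its activator Mmp14 at 344 ± 10.3 and its inhibitor Timp2 at 364 ± 9.07 FPKM (all SD, n = 4).

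Secreted signals were led by a pair of genes. Ptn, the heparin-binding growth factor pleiotrophin, was at 3279, 3446, 3582 and 3218 FPKM, more than any collagen. Cxcl12, the chemokine that attracts cells bearing CXCR4, was at 1116, 1149, 1291 and 1108 FPKM. Both were highest in control 3 and lowest in control 4. Of 68 growth factor genes, 40 reached 1 FPKM. The next were Angptl4, a lipoprotein lipase inhibitor, at 191 ± 14.5, Grn at 161 ± 4.98, the lymphangiogenic factor Figf at 144 ± 3.97 and Csf1, which supports macrophages, at 114 ± 2.05 FPKM (SD, n = 4). Bmp2, Bmp7, Wnt1, Wnt3a and Shh were listed at 0, as was Lep, the fat cell hormone leptin.

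Antagonists and carriers came next. Fstl1 was at 828 ± 13.5 FPKM, Igfbp4, which binds insulin-like growth factors, at 125 ± 9.57 and Fst, which traps activin, at 124 ± 3.13 FPKM (SD, n = 4). Among 41 cytokine and chemokine genes 20 reached 1 FPKM, against 48.5% of all entries. Ccl2 was at 165 ± 5.21, the pentraxin gene Ptx3 at 150 ± 5.97 and Ccl7 at 135 ± 3.21 FPKM (SD, n = 4). Inflammatory cytokines were low by comparison. Il6 was at 0.219, 0.377, 0.450 and 0.446 FPKM, and Tnf was listed at 0 in 3 controls and at 0.0309 FPKM in control 4. Complement genes were a further secreted group, with C3, the central component of the cascade, at 547, 567, 496 and 566 FPKM. The protease genes C1s, at 179 ± 10.1, and C1ra, at 122 ± 6.52 FPKM (SD, n = 4), were also present, while the genes of the C1q chains, C1qa, C1qb and C1qc, were listed at 0.

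Of 58 matched genes for receptors that could read such signals, 37 were at 1 FPKM or more, against 48.5% of all entries. Pdgfra led at 245, 251, 229 and 235 FPKM, followed by the growth hormone receptor Ghr at 200 ± 4.25, Fgfr1 at 149 ± 5.91 and Il6st, the shared chain of the interleukin 6 family, at 131 ± 7.90 FPKM (SD, n = 4). The insulin receptor Insr was at 14.7 FPKM and Igf1r at 10.8 FPKM. The leptin receptor Lepr was at 0.117 and the fat cell β-adrenergic receptor Adrb3 at 0.0345 FPKM. Of the nuclear receptors 23 of 48 reached 1 FPKM, with Thra, a thyroid hormone receptor, first at 99.8 ± 2.98 FPKM and the retinoid receptor gene Rarg next at 55.2 ± 3.71 FPKM (SD, n = 4). The glucocorticoid receptor gene Nr3c1 was at 39.6 ± 0.979 FPKM (SD, n = 4).

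**Figure D3:**
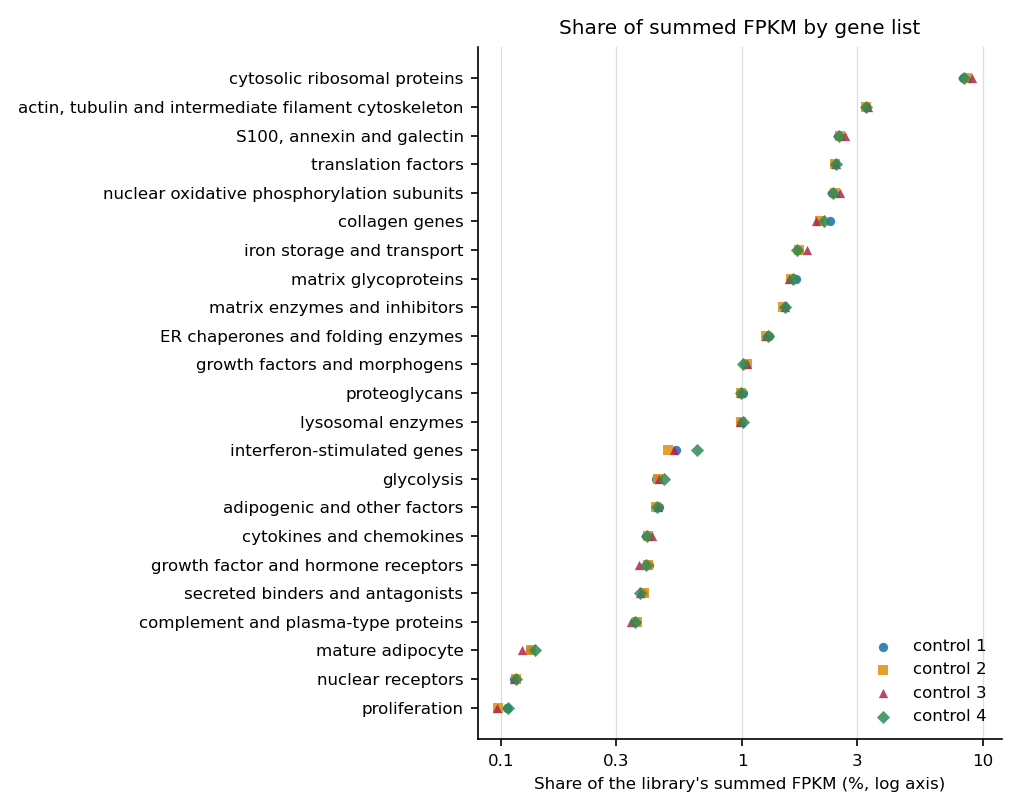
Share of each library's summed FPKM (horizontal log axis, percent) held by 23 gene lists, one mark per control. Ribosomal protein genes hold 8.28% to 9.01%, collagen genes 2.03% to 2.32%, and interferon-stimulated genes are the list where control 4, at 0.649%, lies farthest to the right of the rest.

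The label of the cells was checked against its markers, and all 4 given markers were expressed. Dlk1 (mm9 chr12:110691033-110701546) was at 885, 881, 1036 and 871 FPKM. Pdgfra, the receptor that marks mesenchymal progenitors, has its values above, as has Col1a1. Pparg (mm9 chr6:115311239-115440419) was at 32.6, 32.3, 34.3 and 32.4 FPKM. Dlk1 and Pparg were both highest in control 3, and the other 3 libraries lay close together for each. Of the wider list of 29 preadipocyte and fibroblast genes, 22 reached 1 FPKM. The surface markers Thy1, at 161 ± 7.94, and Ly6a, which encodes Sca-1, at 147 ± 5.04 FPKM (SD, n = 4), were among them, as were Prrx1 at 154 ± 3.99 and Pdgfrb at 69.3 ± 2.06. Not every marker used for progenitors in fat tissue was there. Cd34 was at 0.567, 0.767, 0.567 and 0.732 FPKM, Zfp423, a factor of preadipocyte commitment, was low at 3.71 ± 0.235 FPKM (SD, n = 4), and Dpp4 and Tcf21 were listed at 0.

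Factors that act early and late in fat cell formation were both expressed. Cebpb was at 25.0, 26.8, 35.7 and 27.6 FPKM and Cebpd at 20.6, 23.9, 27.5 and 24.2 FPKM. Both act at the start of differentiation, and both were highest in control 3 and lowest in control 1. Cebpa, which acts later and with Pparg, was at 6.58, 8.15, 10.0 and 9.04 FPKM. Of 67 genes for transcription factors linked to fat or mesenchyme, 59 reached 1 FPKM, with Atf4 at 198 ± 10.9, Ybx1 at 148 ± 7.18 and the mesenchymal factors Twist2 at 84.8 ± 10.1 and Twist1 at 79.8 ± 6.90 FPKM (SD, n = 4) among the highest.

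Genes of the mature fat cell were present in part. Of 28 listed, 18 reached 1 FPKM, against 48.5% of all entries, but the list held only 0.122% to 0.138% of the summed FPKM. Lpl, the enzyme that releases fatty acids from lipoproteins, was at 379, 368, 359 and 365 FPKM, an even and high level. Fabp4, a fatty acid carrier, was at 46.4, 59.8, 56.8 and 66.6 FPKM, and Fasn, fatty acid synthase, at 31.3 ± 2.26 FPKM (SD, n = 4). The hormone and droplet genes were far lower and, at those low levels, far less even. The median counting error was 8.33% at 1 to 5 FPKM, against 1.27% at 100 FPKM or more. How much of their unevenness is counting was not tested. Adipoq, adiponectin, was at 2.77, 3.20, 3.19 and 9.19 FPKM, and Cidec, a lipid droplet protein, at 0.354, 1.03, 1.19 and 3.26 FPKM. Plin1, perilipin, was at 0.758, 0.878, 0.868 and 1.20 FPKM, and Cfd, adipsin, at 0.539, 0.986, 0.484 and 1.53 FPKM. In all of these but Lpl control 4 was the highest library, and in Adipoq the other 3 controls lay together. Of the 18 expressed members 10 were highest in control 4 and 11 lowest in control 1, as deposited and after median-ratio scaling. Over all expressed entries, control 4 was the highest for 19.9% and 21.2% and control 1 the lowest for 32.6% and 26.5% under the same scalings. The mean of the list, as log2(FPKM + 0.5) over its 28 members, was 1.76, 1.92, 1.88 and 2.12, a range of 0.36, and the range was 0.16 without control 4. In these bulk libraries a few differentiated cells and a low level in every cell cannot be told apart. Slc2a4, the insulin-responsive glucose transporter, was at 0.0303 and Pck1 at 0.0174 FPKM, and Lep was listed at 0. Of 15 brown and beige fat genes 3 reached 1 FPKM, and Ucp1, the heat-producing uncoupling protein, Prdm16, Elovl3, Cox8b, Zic1 and Tbx1 were listed at 0.

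Neighbouring mesenchymal fates were represented by single genes. Spp1, osteopontin, was at 161 ± 5.37 FPKM and Runx2, the master factor of bone, at 14.1 ± 0.570 FPKM (SD, n = 4), yet only 4 of 15 bone genes reached 1 FPKM. The defining bone markers Sp7, Bglap, Ibsp and Dmp1 were at 0.105, 0.444, 0.00623 and 0.257 FPKM. Sox9, the master factor of cartilage, was at 28.1 ± 2.11 FPKM (SD, n = 4), with 3 of 16 cartilage genes at 1 FPKM or more and Acan, aggrecan, listed at 0. Of 20 skeletal muscle genes 4 reached 1 FPKM, and Myod1, Myf5 and Ckm were listed at 0. Contractile genes differed from these lists, with 11 of 18 smooth muscle and mural genes at 1 FPKM or more, against 48.5% of all entries. Tpm1 was at 671 ± 28.6 and Acta2, smooth muscle actin, at 439 ± 30.5 FPKM (SD, n = 4). The defining markers of smooth muscle and pericytes, Myh11, Cnn1 and Rgs5, were at 0.137, 0.0577 and 0.0564 FPKM.

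**Figure D4:**
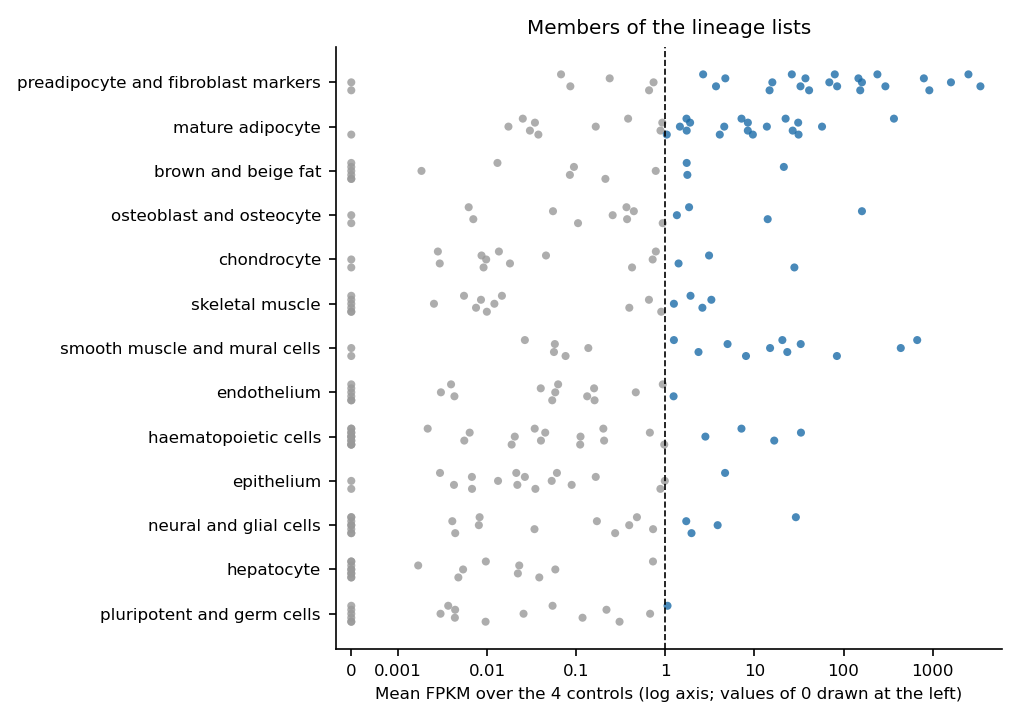
Mean FPKM over the 4 controls (horizontal log axis) of each member of 13 lineage lists, one point per gene, blue at or above 1 FPKM (dashed line) and grey below it, with means of 0 drawn at the left edge. Preadipocyte and fibroblast genes reach up to 3436 FPKM, 18 of 28 mature adipocyte genes and 11 of 18 smooth muscle genes pass 1, and no hepatocyte gene does.

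Cell types from outside the mesenchyme were close to absent. Of 30 haematopoietic genes 4 reached 1 FPKM and 12 were listed at 0. Ptprc, the pan-leukocyte marker CD45, was listed at 0 in controls 1 to 3 and at 0.00863 FPKM in control 4, and Itgam and Cd3e were listed at 0 throughout. The 4 that passed were Ly6c1 at 33.3 ± 2.40, Lyz2 at 16.7 ± 2.38, Cd14 at 7.16 ± 1.08 and Cd74 at 2.82 ± 0.673 FPKM (SD, n = 4). Of 19 endothelial genes only Egfl7, at 1.24 FPKM, passed, and Pecam1, Cdh5, Kdr and Tek were at 0.161, 0.0628, 0.00395 and 0.159 FPKM. Of 18 epithelial genes only Trp63, at 4.69 ± 0.388 FPKM (SD, n = 4), passed in the mean of all 4, and Epcam was listed at 0. Krt14, a basal keratin, was at 1.29, 0.684, 0.986 and 0.990 FPKM, so that without control 2 the epithelial count would be 2. Of 23 neural genes 4 passed, led by the adhesion molecule Ncam1 at 29.2 ± 0.513 FPKM (SD, n = 4), while Snap25, Olig2 and Sox2 were listed at 0. None of 18 hepatocyte genes passed, with Alb, Ttr and Hnf4a listed at 0, and of 18 pluripotent and germ cell genes only Sycp3, at 1.06 FPKM, whose locus overlaps Chpt1, passed. Pou5f1 was listed at 0.

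Some gene families were listed at 0 for nearly all members. Of 1115 olfactory receptor entries 1055 (94.6%) were listed at 0, and 1, Olfr1314 at 1.45 FPKM, passed 1 FPKM. All 52 keratin-associated protein entries were listed at 0, as were 40 of 44 β-defensin entries, and Defb25, at 3.97 FPKM, was the 1 entry of these that passed 1 FPKM. An expressed member of an otherwise placental family stood out: Prl2c2, proliferin, which was first known from 3T3 fibroblasts, was at 79.0, 84.4, 70.7 and 77.4 FPKM. Related entries were lower, Prl2c3 at 25.8 and Prl2c4 at 13.9 FPKM, and the division of reads among them is uncertain. All 14 entries on the Y chromosome were listed at 0, and Xist was at 0.0865 FPKM.

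Hox genes encode factors that set position along the body axis. Whether their levels here reflect a position was not tested. Of 39 Hox entries 15 reached 1 FPKM, against 48.5% of all entries. Hoxd8 led at 41.3 ± 2.00 FPKM, followed by Hoxa2 at 15.9 ± 1.07, Hoxd4 at 13.2 ± 0.553 and Hoxd3 at 9.84 ± 0.744 FPKM (SD, n = 4). Of the HoxA cluster it was the members 1 to 7 that passed, and Hoxa11, Hoxa13, Hoxd11 and Hoxd13, from the other end of their clusters, were listed at 0. Hoxd3 and Hoxd4 overlap, as do Hoxa3 to Hoxa6, so their values are uncertain without strand. Hoxc13 was a late member that passed, at 2.70 ± 0.633 FPKM (SD, n = 4).

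Dlk1 belongs to a group of imprinted growth genes, of which only one parental copy is normally used. Of 28 listed after the values were seen, 16 reached 1 FPKM. Gnas was at 892, 902, 1022 and 889 FPKM, much like Dlk1, and Igf2 was at 59.0, 54.7, 57.4 and 49.4 FPKM. The noncoding neighbours of Dlk1, which come from the other parental copy, did not share its level: Meg3 was listed at 0 in all 4 controls, Rian was at 0.827, 0.896, 1.11 and 1.02 FPKM, and Mirg at 0.138 FPKM. H19, the noncoding partner of Igf2, was at 8.61, 8.03, 8.98 and 8.15 FPKM. Cdkn1c and Phlda2, growth-restraining imprinted genes, were at 0.0198 FPKM and listed at 0.

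Genes of division and of arrest were both present. All 26 matched proliferation genes reached 1 FPKM and together held 0.101% ± 0.00582 of the summed FPKM (SD, n = 4). Pcna, the sliding clamp of DNA replication, led at 74.1 ± 3.79 FPKM, followed by the replication helicase gene Mcm4 at 38.7 ± 1.16 and Top2a at 21.4 ± 2.68 FPKM (SD, n = 4). Of the 26 genes 17 were highest in control 4 as deposited and 16 with every library scaled to the same sum, where control 4 was the highest for 19.9% and 25.6% of all expressed entries. The lowest library depended on the scaling, being control 2 for 16 genes as deposited and control 3 for 15 with equal sums. The 22 entries of the arrest list had a median level of 43.7 FPKM, against 14.9 FPKM in the proliferation list. Of these 22, 5 reached 100 FPKM, among them the genes named next. Gas6 was at 501 ± 31.5, Cdkn2a, which encodes p16 and p19ARF, at 374 ± 21.4, and Gas1, named for growth arrest, at 287 ± 18.2 FPKM (SD, n = 4).

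Genes for making and sorting secreted proteins were high. Calr, calreticulin, was at 980 ± 24.7, Hspa5, the chaperone BiP, at 599 ± 4.68 and P4hb, a disulfide isomerase that is also a subunit of the collagen prolyl hydroxylase, at 624 ± 11.6 FPKM (SD, n = 4). All 22 members of that list reached 1 FPKM. Lysosomal genes were led by Psap, prosaposin, at 696 ± 21.0 FPKM and the protease gene Ctsd at 500 ± 16.1 FPKM (SD, n = 4). Of 19 glycolysis genes 18 reached 1 FPKM, with Pkm2 at 352 ± 15.4 and Aldoa at 345 ± 19.1 FPKM (SD, n = 4) first. Among long noncoding RNAs, Malat1 was at 287 ± 26.7 FPKM and Neat1, the scaffold of paraspeckles, at 205 ± 8.0 FPKM (SD, n = 4).

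The spread among the 4 controls was small for most genes. The median CV was 5.48% over the 11341 expressed entries, and 3.15% of them had a CV over 20%. The median counting error, from the deposited intervals, was 8.33% of the level at 1 to 5 FPKM and 1.27% at 100 FPKM or more. Over entries of at least 5 FPKM, 35.6% had an SD of at least 2 times their counting error, and of those at 100 FPKM or more 82.4% did. Control 3 carried much of that excess, since without it the 35.6% became 19.3% and the median CV 3.97%.

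The most even genes differed little between the 4 libraries. Srd5a3, a polyprenol reductase needed for protein glycosylation, was at 20 FPKM in each control, with a CV of 0.158%. Nono, an RNA-binding protein of paraspeckles, was at 166, 165, 167 and 165 FPKM, a CV of 0.468%, below its counting error of 1.10%. So small a CV over 4 libraries is partly what the choice of the lowest among 4577 entries gives. Of the 22 common reference genes, Nono was the most even, and Ywhaz had a CV of 1.37%. The widely used Actb had a CV of 5.05%, Gapdh 6.18%, Rplp0 8.46% and B2m 10.1%. Actb, Gapdh and Rplp0 were highest in control 3, with Gapdh at 299, 308, 345 and 321 FPKM, whereas B2m was highest in control 4.

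The least even genes fell into a few kinds. The first kind was genes that overlap a pseudogene or a related entry. Rpl34 was at 8.72, 9.30, 105 and 10.3 FPKM, while the overlapping Rpl34-ps1 was at 89.1, 112, 23.4 and 94.1 FPKM. The library that was high for the gene was the low one for the overlapping entry, so neither value can be taken alone. Rps27, at 6.89, 8.99, 34.0 and 26.7 FPKM, overlaps Gm9846, and Pisd-ps1, at 0.00147, 4.56, 5.44 and 17.1 FPKM, overlaps Pisd-ps3. Eno1, the glycolytic enzyme enolase, shows the same limit on levels: it was at 6.45 FPKM, while Gm5506 held 359 FPKM at one locus and 132 at a second entry, on the Eno1 locus, whose status was not OK.

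The second kind was interferon-stimulated genes, which cells switch on when they sense viral or foreign nucleic acid. Ifit1, which binds foreign RNA, was at 15, 7.98, 9.57 and 20.1 FPKM. Ifi27l2a was at 34.6, 46.8, 31.0 and 74.2 FPKM, Oasl2 at 9.04, 7.18, 8.54 and 16.2 FPKM, and Isg15, a ubiquitin-like modifier, at 27.3, 23.6, 30 and 44.1 FPKM. Control 4 was the highest for each of these genes. Rtp4, Usp18, Ifit3 and Gbp3, which were also among the 15 least even, had their highest value in control 4 and their lowest in control 2. A list of such genes was then drawn up after these values were seen. Of its 60 matched members 54 were expressed, and 48 of those 54 were highest in control 4 as deposited, 49 after median-ratio scaling and 51 after scaling each library to the same sum. Control 4 was the highest for 19.9% of all expressed entries. The list held 0.531%, 0.492%, 0.521% and 0.649% of the summed FPKM in controls 1 to 4. Since genes of this kind chose the list, this count describes the libraries and supports nothing further. B2m, the light chain of the MHC class I complex, was at 1360, 1276, 1463 and 1613 FPKM, and H2-K1, a heavy chain, at 65.8, 63.4, 75.7 and 87.3 FPKM. Of 16 type I interferon entries 14, with Ifnb1 among them, were listed at 0. The part that transfection may have in these levels was not tested, since every library was transfected.

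**Figure D5:**
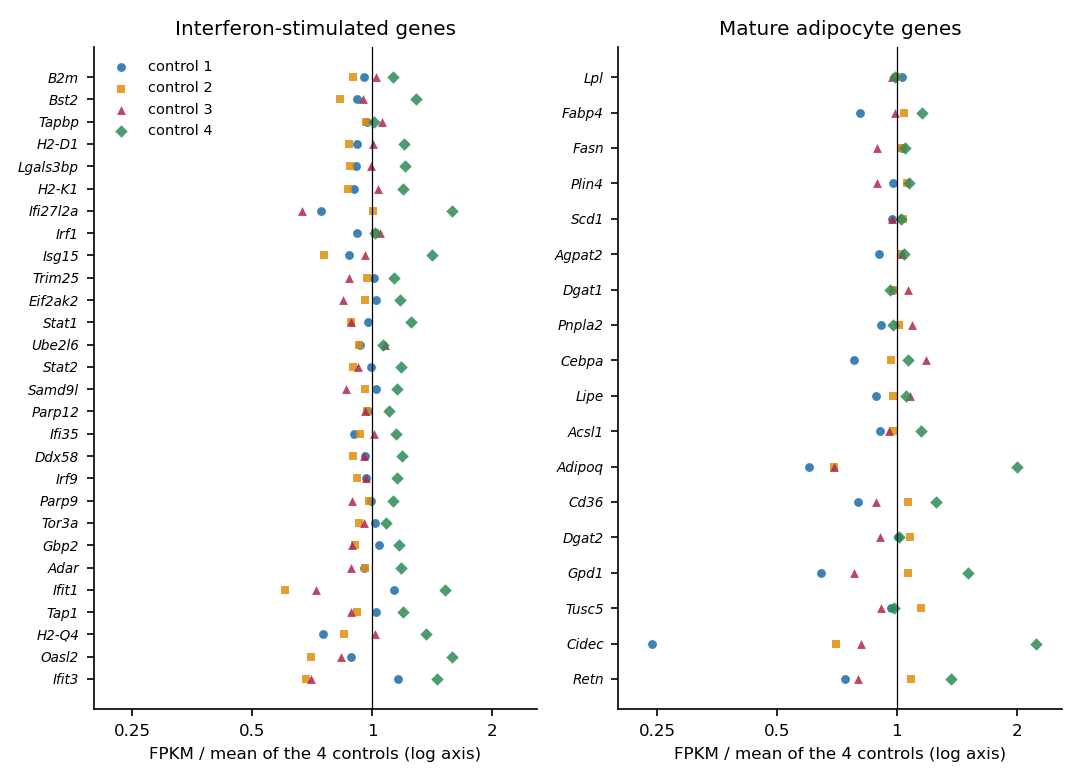
FPKM of each gene divided by its mean over the 4 controls (horizontal log axis), one mark per library, for the 28 interferon-stimulated genes of highest mean (left) and the 18 expressed mature adipocyte genes (right). Control 4 is the rightmost mark for most genes on the left, and on the right for Adipoq and Cidec, where it reaches 9.19 and 3.26 FPKM.

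The third kind had 1 library apart from the other 3. Rps19, with no overlapping expressed entry, was at 244, 75.5, 273 and 252 FPKM, low in control 2. Rn45s, the ribosomal RNA precursor, was at 515, 567, 848 and 525 FPKM, highest in control 3. Other genes were low in control 3. Sned1 was at 184, 186, 118 and 188 FPKM, Hipk2, a kinase, at 7.99, 7.64, 3.71 and 7.76 FPKM, and Cdk6, a cyclin-dependent kinase, at 6.76, 6.16, 3.49 and 6.25 FPKM. For each of these 3 genes controls 1, 2 and 4 lay close together. Their longest annotated transcripts, of 9147, 7684 and 11525 bases, have lengths of the longest class (from 5079 bases). In that class control 3 was above the mean of the other controls for only 17.5% of genes.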

How the data were processed

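Total RNA of 4 control siRNA libraries was used; the labels do not say whether strand was kept. The submitters' processing notes name TopHat2 2.0.11, Cufflinks 2.2.1 and build mm9. Per the file headers, the deposited tables give each entry's FPKM, its interval bounds and its status in 1 library. The interval was read as 4 standard errors wide, which gave the counting error and the fragments. No test between groups was run, as there is 1 group, and Dixon's criterion marked libraries far from the other 3. CVs, shares and counts were computed with Python 3.11.15, numpy 2.4.6 and pandas 2.3.3, with 1 FPKM as the threshold for expressed. Members and lists were chosen with earlier results of these data known. The text names the 30 highest entries, the 4 markers, the up to 6 highest members per list, lineage members at 1 FPKM or listed at 0, reference genes, the 15 least and 10 most even entries. Fto, Mdm2's neighbours and other genes outside this rule were chosen after their values were seen. Some genes under this rule are left out of the text. Lengths came from GENCODE M21, matched by symbol for 8279 of the 9122 symbols with a single entry and a mean of at least 5 FPKM. Each was that of the longest annotated transcript, coding where there was one, and the transcript expressed may be shorter. The spread measure was tested on simulated data whose intervals were set from the simulated counts. That test cannot show whether the deposited intervals hold counting error alone.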

Additional observations from a re-analysis of the deposited data

Results flagged for a closer look

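Of 159 expressed genes named above, 21 had 1 control far from the other 3, by Dixon's criterion on the gap to the nearest of them. Chance flags about 1 in 20 groups of 4, but these genes share the same libraries and some were named because a library stood apart or for their evenness, so the count is a description and cannot be set against that rate. In 17 of the 21 genes the library apart was control 3. It was the highest for Rpl34 (105 FPKM against 8.72 to 10.3 in the others), Rn45s (848 against 515 to 567), Ftl1 (1456 against 1242 to 1259), Pcolce (1166 against 1032 to 1040), Dlk1 (1036 against 871 to 885), Gnas (1022 against 889 to 902), Calr (1017 against 965 to 969) and Rpl41 (1780 against 1651 to 1667). It was also the highest for the regulators Pparg (34.3 against 32.3 to 32.6), Rarg (60.7 against 53.1 to 53.7), Hoxd8 (44.3 against 40.1 to 40.5), Ybx1 (159 against 143 to 145) and the receptor gene Fgfr1 (158 against 146 to 148). It was the lowest for Sned1 (118 against 184 to 188), Hipk2 (3.71 against 7.64 to 7.99), Fasn (28 against 32.2 to 32.8) and Trp63 (4.11 against 4.87 to 4.91).

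Control 4 stood apart for Adipoq, at 9.19 FPKM against 2.77 to 3.20. Control 2 stood apart for Rps19, at 75.5 FPKM against 244 to 273. Control 1 was low for Cdkn1a, at 99.0 FPKM against 109 to 110, and for Srd5a3, where all 4 libraries round to 20 FPKM. Of 42 shares of lists and library totals 1 had a library apart: proteoglycan genes held 1.01% of the summed FPKM in control 1, against 0.991% to 0.992% in the others.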

How the results depend on the processing

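Over 9 summary values and their alternatives, 46 of 67 recomputed values counted as unchanged, by a rule that differed with the kind of value. Counts had to stay within 1.5 times, and shares of the summed FPKM within their SD between libraries. The share of entries with excess spread had to stay inside an exact binomial interval over entries. The median CV and the range of the mature adipocyte mean had to be identical as printed, so any change in them counted as moved. The median CV of 5.48% became 5.50% with entries of any status, 5.81% with every library scaled to the same sum, 5.37% with median-ratio scaling, 8.23% with no filter on low values and 4.58% from 10 FPKM. It ran from 3.97% to 5.78% with 1 control left out in turn. The share of entries with an SD of at least 2 times the counting error, 35.6%, was 30.8% from 1 FPKM and 47.9% from 20 FPKM, and 19.3% to 40.0% with 1 control left out, lowest without control 3. The range of the mature adipocyte mean, 0.36, was 0.41 and 0.35 under the 2 scalings, 0.47 and 0.30 with pseudocounts of 0.1 and 1, and 0.16 to 0.36 with 1 control left out, lowest without control 4. The share of the 20 highest entries was 10.6% without loci under 300 bases, Mir703 being one of them. The cause of these shifts was not tested. Of 52 lineage counts with 1 control left out, an alternative chosen after seeing the data, 1 changed by over 1.5 times, that of the epithelial list without control 2.

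No paired analysis was possible because the 4 controls form 1 group and no comparison between groups was made. Depth limits the low values: at 1 to 5 FPKM the counting error was a median of 8.33%, and a listed 0 does not show that a gene is absent. Intervals were read as covering counting error only. The counts of list members highest or lowest in 1 control under the other scalings were also chosen after seeing the data.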
